A study of Arabidopsis thaliana with 16 samples.

Results

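The comparison described here set induced amiR-tor seedlings against induced empty-vector seedlings, so that the inducer was the same on both sides. It used 8 of the 16 arrays of the study: 6 arrays of amiR-tor lines 9, 17 and 20 harvested after 3 or 6 days on estradiol, and 2 arrays of the empty vector, 1 for each day. Members were found by their titles, and each line was matched to the empty-vector array of its own day. All were 2-week-old Arabidopsis thaliana seedlings in the Col-0 background, grown under continuous light on MS medium with hygromycin and then placed on 20 µM estradiol. The amiR-tor lines carry an artificial microRNA against the TOR kinase gene under an estradiol-inducible promoter, and the reference carries the pER8 vector with no microRNA. Each line is a separate transgenic line and whole seedlings were extracted, so fewer cells of a type and less RNA per cell cannot be told apart in any value below. The labels contradict each other in places. The title of the series names a different gene, the empty vector is mentioned in the descriptions of amiR-tor samples too, and an artificial microRNA stands in the cultivar tag of the vector samples. Grouping here follows the sample titles.

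TOR is a protein kinase that couples growth to nutrients and energy. In plants it works in a complex with RAPTOR and LST8, phosphorylates S6 kinase, and is known to promote translation, cell division and root and leaf growth and to restrain autophagy. Plants with little TOR activity are known for small organs, stores of starch and lipid, and early yellowing. TOR had no listed probe set among the names used here, so how far its transcript was silenced was not analysed. Of the 12 loci of the TOR complex and S6 kinase list, only RAPTOR1 (AT3G08850), the substrate-recruiting subunit, was on a named probe set that passed the filter on dim signals. RAPTOR1 read 5.79, 5.97 and 6.45 in lines 9, 17 and 20 at 3 days, against 5.45 in the empty vector (log2 signal). At 6 days it read 6.26, 6.23 and 5.84 in the lines, against 5.51 in the empty vector. All 6 induced amiR-tor arrays were above both empty-vector arrays, by 0.61 ± 0.20 on the log2 scale over both days (SE; limma adjusted p = 0.202), which did not pass the test. At 6 days the difference was 0.6 with inducer and 0.31 without it.

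Array control signals divided the 8 arrays before any gene was compared. The control probe set for 25S ribosomal RNA was at 6.66, 5.99 and 5.27 (log2) in lines 9, 17 and 20 at 3 days, against 11.39 in the empty vector. At 6 days it read 5.98 in line 9 but 11.54 in line 17 and 11.51 in line 20, against 11.41 in the empty vector. The actin control difference, 5′ signal minus 3′ signal, is a measure of RNA integrity and of how far labelling ran. It was -10.39 to -4.52 on the 4 arrays with a low 25S signal and -1.92 to -1.73 on the other 4. Kind of array and genotype therefore cannot be told apart at 3 days. At 6 days lines 17 and 20 match the empty vector in both signals, and their values or medians are given separately beside the main results.

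**Figure D1:**
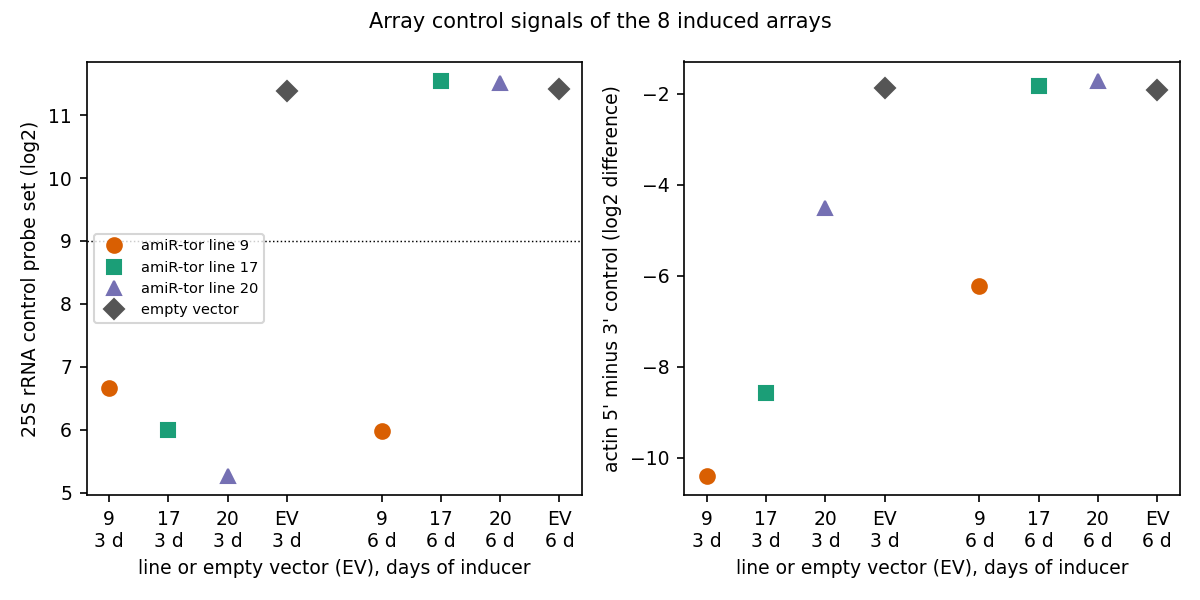
Control signals of the 8 induced arrays, by line (9, 17, 20) or empty vector (EV) and days of inducer: the 25S ribosomal RNA probe set on the left (log2, dotted line at 9) and the 5′ minus 3′ actin difference on the right (log2). Each point is 1 array. All 3 lines at 3 days and line 9 at 6 days sit between 5.27 and 6.66 in the 25S panel, while lines 17 and 20 at 6 days sit level with the empty vector.

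Tests used the deposited log2 values of 13701 probe sets that reached log2 4 in at least 3 arrays. A single model over all 16 arrays of the study was fitted with limma, since 1 empty-vector array per day gives no spread of its own; the spread among the lines stood in for it. At 6 days 5 probe sets passed an adjusted p of 0.05 (0.0365% of those tested), 4 of them higher in the lines and 1 lower. At 3 days 1 passed (0.0073%), and over both days 4 passed (0.0292%), 3 higher and 1 lower. At an unadjusted p under 0.05 there were 951 at 6 days, 1879 at 3 days and 2476 over both days. In the arrays with a high 25S signal, lines 17 and 20 against the empty vector at 6 days gave 0 calls (0.0%) in limma with 3 residual degrees of freedom, 779 at an unadjusted p under 0.05 and a smallest adjusted p of 0.356. Fitted on the 8 induced arrays alone, limma gave 0 calls at 6 days, at 3 days and over both days, with 805, 1348 and 1993 at an unadjusted p under 0.05.

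Together 7 different probe sets passed at 6 days, at 3 days or over both days. None of them has a gene symbol in the names used here, and 4 are known only by their array identifier. The probe set 252320_at had the largest difference. It read 7.43, 6.61 and 7.45 (log2) in lines 9, 17 and 20 at 3 days, against 4.47 in the empty vector, and 9.11, 8.80 and 8.29 in the lines at 6 days, against 4.15 in the empty vector. Without inducer at 6 days it read 3.97, 3.04 and 4.06 in the lines, against 3.78 in the empty vector. All 6 induced amiR-tor arrays were above the other arrays named. The difference was 4.58 ± 0.61 at 6 days (SE; limma adjusted p = 0.0346) and 3.64 ± 0.43 over both days (SE; limma adjusted p = 0.0194), and lines 17 and 20 alone gave 4.39 on the arrays with a high 25S signal. With the kind of array in the model it was 4.27 at 6 days (limma adjusted p = 0.0337) and 3.01 over both days (limma adjusted p = 0.147). That term rests on line 9 against lines 17 and 20 in the induced 6-day and non-induced 3-day groups, where their arrays differed in kind. For the induced 3-day lines, all low in 25S, it is carried over from those groups.

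The probe set 252984_at rose at 6 days with little spread between lines. Its signal was 11.10, 11.23 and 10.83 in lines 9, 17 and 20, against 7.63 in the empty vector. At 3 days it was 9.20, 8.74 and 9.41 in the lines, against 8.39 in the empty vector. Without inducer at 6 days it was 7.28, 7.63 and 7.63 in the lines, against 7.79 in the empty vector, so the lines and the vector were close without inducer. The 6-day difference was 3.42 ± 0.28 (SE; limma adjusted p = 0.00149), and 3.40 for lines 17 and 20 alone. It was the 1 probe set (0.0073%) whose difference with inducer exceeded that without inducer beyond the test, by 3.70 ± 0.39 (SE; limma adjusted p = 0.0216). In that comparison 392 reached an unadjusted p under 0.05.

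The other 3 calls at 6 days were smaller. The probe set 266376_at read 4.51, 4.70 and 4.13 in the lines, against 2.65 in the empty vector, a rise of 1.80 ± 0.23 (SE; limma adjusted p = 0.0341). Both empty-vector arrays with inducer were near the floor of the scale for it (2.73 at 3 days, 2.65 at 6 days). The induced 6-day lines were the 3 arrays of 16 in which it reached log2 4, so it was kept through the values that were then tested, and its call does not stand apart from the filter. AT3G61930 read 6.60, 7.02 and 6.54 in the lines, against 4.93 in the empty vector, a rise of 1.79 ± 0.24 (SE; limma adjusted p = 0.0346). The only fall was that of 260693_at, which read 9.29, 9.31 and 9.25 in the lines, against 10.79 in the empty vector, a difference of -1.51 ± 0.17 (SE; limma adjusted p = 0.0218). At 3 days 260693_at read 8.96, 9.14 and 9.15 in the lines and 9.20 in the empty vector, so its 6-day gap goes with a higher signal in the empty vector at the later day. With the kind of array in the model 260693_at and 252984_at still passed at 6 days (limma adjusted p = 0.0337 and 0.00555), and 266376_at and AT3G61930 did not (0.0653 and 0.072).

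AT3G14280 was the call at 3 days and also passed over both days. It read 8.41, 8.09 and 8.35 in the lines at 3 days, against 6.08 in the empty vector, and 8.56, 8.60 and 8.40 at 6 days, against 7.71. The induced lines hardly differed between days while the empty-vector arrays did, and the non-induced empty vector read 7.35 at 3 days and 6.95 at 6 days. Its difference was 2.20 ± 0.22 at 3 days (SE; limma adjusted p = 0.0124) and 1.51 ± 0.16 over both days (SE; limma adjusted p = 0.00861). With the kind of array in the model these became 2.01 and 1.38 (limma adjusted p = 0.235 and 0.129), so neither call was kept. Since kind of array and genotype coincide at 3 days, that model cannot separate them there. Without inducer at 6 days the lines read 7.75, 8.04 and 7.73, against 6.95 in the empty vector, a difference of 0.89. AT3G51280 was the 1 fall over both days, at -1.42 ± 0.18 (SE; limma adjusted p = 0.0295), and at -1.47 with the kind of array in the model (limma adjusted p = 0.215). It read 4.10, 3.94 and 3.81 in the lines at 3 days, against 5.04 in the empty vector, and 3.90, 3.47 and 4.0 at 6 days, against 5.53, whereas the non-induced empty vector read 4.04 and 4.28.

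**Figure D2:**
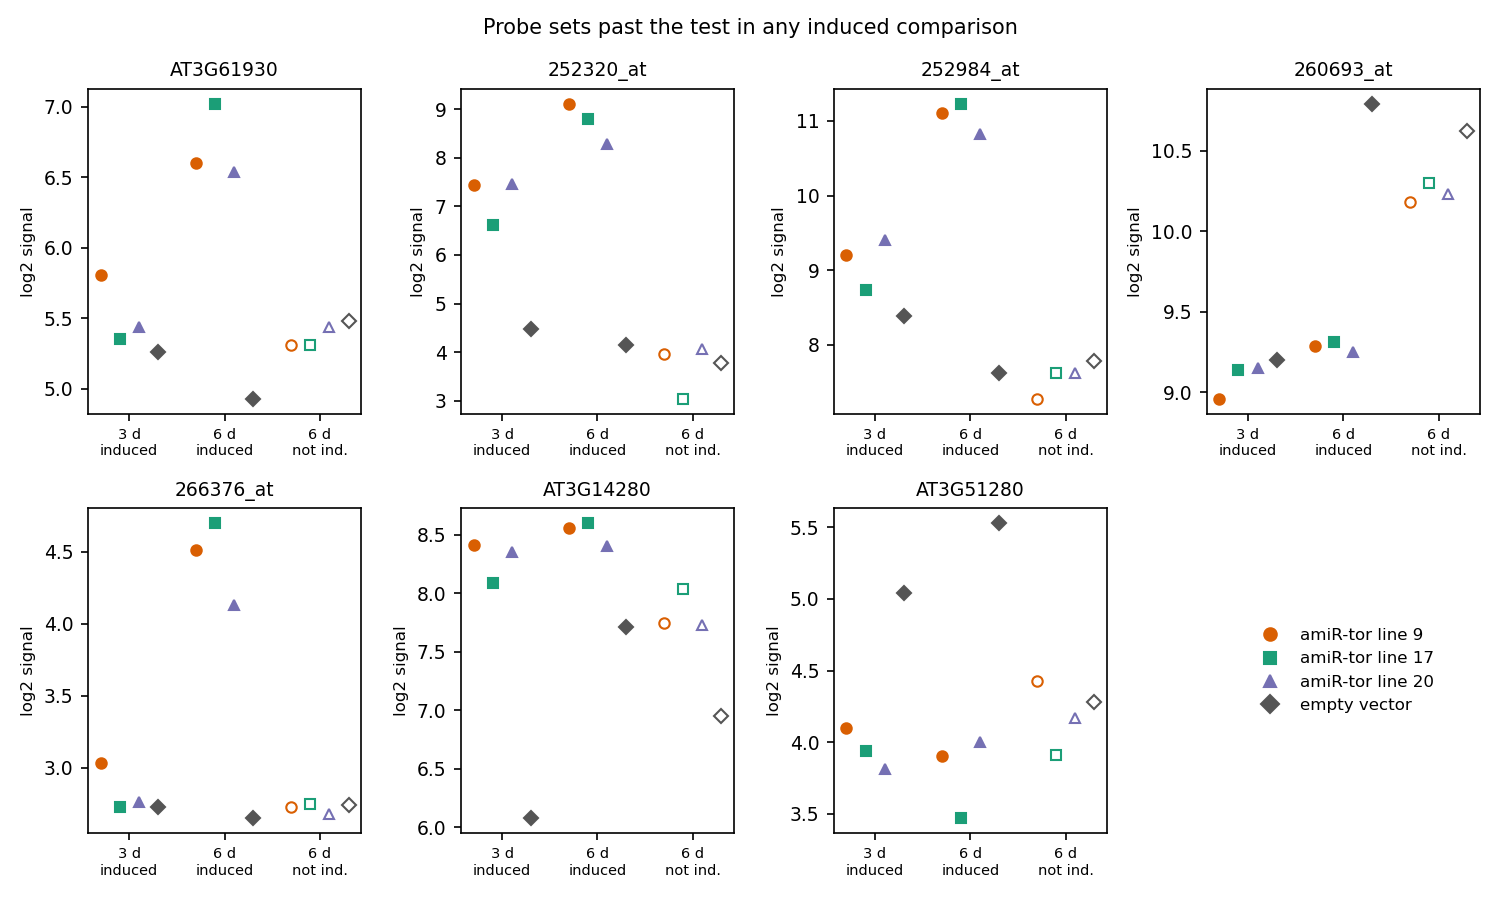
Signal (log2) of the 7 probe sets that passed the test in the 6-day, 3-day or both-day comparison, by array. Filled symbols are induced arrays at 3 and 6 days, open symbols non-induced arrays at 6 days; colours are the lines and grey diamonds the empty vector. For 252984_at the 3 induced lines at 6 days lie between 10.83 and 11.23, above every other array shown.

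Leaving out a line left 1 or 0 of the 5 calls at 6 days, in a fit with 4 residual degrees of freedom in place of 8, while the differences kept their size. The count at 6 days was 0 when line 17 was left out. Leaving out line 9 gave 1 call, which was not among the 5, and leaving out line 20 gave 4, of which 1 was. The 6-day difference of 252984_at was 3.40, 3.33 and 3.54 without lines 9, 17 and 20, with limma adjusted p = 0.103, 0.18 and 0.0251. That of 252320_at was 4.39, 4.55 and 4.80, that of 266376_at 1.76, 1.67 and 1.96, that of AT3G61930 1.85, 1.64 and 1.88, and that of 260693_at -1.51, -1.52 and -1.49. Leaving out only the low-25S array of line 9 at 6 days gave 3.40 with limma adjusted p = 0.00853. At 3 days there were 362 calls without line 9 and 0 without line 17 or line 20, and over both days 70 without line 9, 0 without line 17 and 4 without line 20. Without line 9 no group held arrays of both kinds, so kind of array added nothing to the spread within groups. At 3 days it still coincided with genotype, so the 362 and 70 calls cannot be credited to genotype. The part of array kind in them was not tested. AT3G14280 at 3 days differed by 2.14, 2.30 and 2.17 without lines 9, 17 and 20 (limma adjusted p = 0.0108, 0.785 and 0.274).

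Genes that differed in all lines were counted next, without a test, because the 3 lines share 1 empty-vector array per day. Past a difference of 1 on the log2 scale, 118 probe sets were higher in all 3 lines at 6 days (0.861% of those kept) and 91 were lower (0.664%). Lines 17 and 20 alone gave 148 higher (1.08%) and 117 lower (0.854%). At 3 days 163 were higher (1.19%) and 445 lower (3.25%), with every line's array differing in kind from the empty vector. In all 6 pairs 13 were higher (0.0949%) and 15 lower (0.109%).

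The arrays without inducer, which that count did not use, gave different values for the higher and the lower probe sets. Of the 118 higher at 6 days, 0 were past 1 in all lines without inducer, 16 had the same sign there, and their median difference without inducer was -0.10. Over all kept probe sets 12 were past 1 in all lines there (0.0876%). Over all kept probe sets 22.3% were higher in all lines without inducer. Of the 91 lower, 8 were past -1 in all lines without inducer, against 0.394% of all kept, and 54 had the same sign, against 18.5% of all kept, with a median of -0.64. The count with inducer chose these probe sets, so their size with inducer is not set against that without it. The median difference of the induced from the non-induced empty vector of 6 days was -0.41 for the 118 higher and 0.33 for the 91 lower. Both sets were chosen by their distance from that single induced array, so the direction of these medians was at least partly set by the choice.

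Of the 28 probe sets past 1 in all 6 pairs, 16 have a locus and 5 a gene symbol. The higher ones with a symbol are PDF1.2, PDF1.2b and ADPG1, and the lower ones are EXPA15 and WRKY22. Of the loci without a symbol, AT3G29970 read 8.45, 7.20 and 6.84 in the lines at 3 days, against 4.85 in the empty vector, and 9.44, 8.42 and 6.61 at 6 days, against 4.56. In line 9 it was also 9.41 without inducer at 6 days, while lines 17 and 20 read 4.60 and 4.16, so that line stood apart without inducer. AT5G18840 read 8.28, 9.14 and 7.57 in the lines at 6 days, against 5.87 in the empty vector. Without inducer at 6 days its lines were also higher, at 6.22, 6.01 and 6.35, against 5.17, a difference of 1.02. AT3G16670 read 7.37, 7.01 and 8.60 in the lines at 6 days, against 10.31, and without inducer 10.16, 9.57 and 10.27 in the lines, against 9.84. The probe set 264153_at, on the lower side, had 2.55, 3.19 and 4.41 in the lines at 6 days, against 7.53 in the empty vector, and 3.27, 3.75 and 4.59 at 3 days, against 6.42. Of these 4, AT3G29970 and AT5G18840 were picked after their values were seen.

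No gene with a symbol passed any of these comparisons in the model over 16 arrays, so the genes below are given as values, ranked by their smallest pair difference. The 2 defensin genes head the higher side. PDF1.2 (AT5G44420), a plant defensin used as a marker of the jasmonate and ethylene defence response, read 10.55, 11.42 and 11.07 in the lines at 3 days, against 8.79 in the empty vector. At 6 days it read 9.59, 9.18 and 11.48, against 7.66. The induced arrays were above the induced empty vector in every pair, but the non-induced lines 17 and 20 read 11.05 and 10.41 at 6 days, against 7.76 in the non-induced empty vector. The difference without inducer at 6 days was 1.75, beside 2.42 with it, and over both days it was 2.32 ± 0.94 (SE; limma adjusted p = 0.25). PDF1.2b (AT2G26020) is a close copy whose probe set may share signal with PDF1.2. It differed by 1.88 ± 0.66 over both days (SE; limma adjusted p = 0.215), and by 1.22 without inducer at 6 days. JRG21 (AT3G55970), a jasmonate-regulated oxygenase, read 9.01, 8.65 and 6.83 in the lines at 6 days, against 5.46 in the empty vector, but 7.58 in the non-induced empty vector. THI2.1 (AT1G72260), a thionin of the same response, was high in line 9 alone, with 9.76, 4.26 and 6.14 in the lines at 6 days, against 5.34.

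Vacuolar and secreted proteases were higher in the induced lines at both days, without passing the test. Of its 10 loci 4 were measured, and all 4 were higher in all 6 pairs, where 1959 of the 13701 kept probe sets were. The lists here and below were written with earlier results of these data known, and their genes share the same empty-vector arrays. Such counts are therefore descriptions and not independent support. Their median difference was 1.71 at 6 days and 0.67 at 3 days, beside -0.02 and 0.05 for all kept probe sets, and 1.59 for lines 17 and 20 at 6 days. Without inducer at 6 days the median was -0.31. The 3 vacuolar processing enzymes are cysteine proteases that mature and break down proteins in the vacuole. GAMMA-VPE (AT4G32940), the form of vegetative organs, read 12.20, 11.89 and 11.47 in the lines at 6 days, against 10.59 in the empty vector, and 11.33, 10.97 and 10.79 at 3 days, against 10.35. BETA-VPE (AT1G62710), known mainly from seeds, read 7.25, 6.99 and 6.50 at 6 days, against 5.32, while the non-induced lines read 5.59, 5.38 and 5.90, against 5.40 in the non-induced empty vector. ALPHA-VPE (AT2G25940) read 5.45, 5.85 and 4.58 at 6 days, against 3.46 in the empty vector, but 5.11 in the non-induced empty vector. Against both empty-vector arrays of the day pooled, with and without inducer, GAMMA-VPE differed by 1.19 (limma adjusted p = 0.0468) and BETA-VPE by 1.55 (limma adjusted p = 0.0266), calls that the single induced array did not give (adjusted p = 0.326 and 0.245). The pooled fit called 79 of the 13701 kept probe sets at 6 days, and its reference no longer shares the inducer with the lines. The same holds for the pooled values given below. It called 0 measured genes of the starch, autophagy, cell wall and chlorophyll synthesis lists at 6 days.

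Subtilases are a family of secreted serine proteases. SBT3.5 (AT1G32940) read 9.81, 9.78 and 8.91 in the lines at 6 days, against 7.16 in the empty vector, a difference of 2.34 ± 0.47 (SE; limma adjusted p = 0.18). Its non-induced values were 8.55, 7.78 and 7.66 in the lines, against 8.65 in the empty vector, so the difference had the other sign without inducer. SBT3.3 (AT1G32960), which primes immune responses, read 5.79, 5.29 and 4.24 in the lines at 6 days, against 2.96, and 5.01, 4.03 and 4.24 at 3 days, against 3.28. ADPG1 (AT3G57510), a polygalacturonase that dissolves pectin where organs separate, read 6.64, 6.58 and 6.45 at 6 days, against 5.08, and 7.85, 6.93 and 6.53 at 3 days, against 5.35. The non-induced empty vector read 6.59 and 6.53, so the induced lines overlapped it and the induced empty vector was the low array.

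Pigment genes had higher values at 6 days, with no common direction at 3 days. The flavonoid and anthocyanin list had 4 measured genes of 21, with a median difference of 1.94 at 6 days and -0.02 at 3 days, beside -0.02 and 0.05 for all kept probe sets. By line the 6-day medians were 2.75, 2.01 and 0.98. UF3GT (AT5G54060), which adds a sugar to anthocyanins, read 8.09, 7.43 and 6.01 in the lines at 6 days, against 4.28 in the empty vector, and 3.62, 4.63 and 4.65 at 3 days, against 4.19. Without inducer at 6 days it read 4.09, 3.03 and 3.63 in the lines, against 4.19, so only the induced 6-day lines were high among these arrays. The 6-day difference was 2.90 (limma adjusted p = 0.315), and 2.94 against the pooled empty-vector arrays of the day (limma adjusted p = 0.0316). DFR (AT5G42800), the reductase at the entry to the anthocyanin branch, read 9.18, 8.12 and 6.40 at 6 days, against 5.20. UGT78D2 (AT5G17050), a flavonoid glucosyltransferase, read 10.18, 9.59 and 9.25, against 8.49. UGT78D1 (AT1G30530), a rhamnosyltransferase of flavonols, was higher in lines 9 and 20 and not in line 17, with 9.52, 7.99 and 8.33, against 8.13.

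Starch genes had mostly higher values, and none passed the test. The starch list had 5 measured genes of 31, with median differences of 0.83 at 6 days, 0.69 at 3 days and 0.53 for lines 17 and 20 at 6 days. By line the medians were 0.80, 0.75 and 0.49 in lines 9, 17 and 20 at 6 days and 0.45, 0.85 and 0.78 at 3 days, so the order of the lines was not the same at both days. APL3 (AT4G39210), a large subunit of the enzyme that makes ADP-glucose for starch and a known sugar-responsive gene, read 8.76, 9.18 and 7.08 in the lines at 6 days, against 5.95 in the empty vector, and 6.64, 7.84 and 6.92 at 3 days, against 6.00. Without inducer at 6 days the lines read 5.59, 5.54 and 6.13, against 5.36. Its difference over both days was 1.76 ± 0.53 (SE; limma adjusted p = 0.192). AT4G24450, a dikinase of the family that phosphorylates starch, carries the symbol PWD in the gene table, as does AT5G26570, the phosphoglucan dikinase usually meant by it. Over both days AT4G24450 differed by 1.37 and AT5G26570 by 1.22, and with the kind of array in the model by 0.66 and 0.63. At 6 days AT5G26570 differed by 1.63 in line 9, on its low-25S array, and by 0.57 and 0.49 in lines 17 and 20. The sugar efflux carriers were uneven. SAG29 (AT5G13170), a carrier that also marks senescence, read 8.79, 9.89 and 7.06 at 6 days, against 5.83, while SWEET11 (AT3G48740), which loads the phloem, read 11.38, 10.96 and 10.99, against 11.47.

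Autophagy genes were higher by small amounts. Of 38 loci 15 were measured, and 12 were higher in all 3 lines at 6 days and 0 lower, where 3387 and 3538 of the 13701 kept probe sets were. The median difference was 0.49 at 6 days and 0.45 at 3 days, with 0.33 for lines 17 and 20 at 6 days and -0.10 without inducer. The medians at 6 days were 0.82 in line 9, 0.39 in line 17 and 0.15 in line 20. At 3 days, with all 3 lines on low-25S arrays, they were 0.80, 0.49 and 0.19, so the order of the lines was the same at both days. ATG8H (AT3G06420), a ubiquitin-like protein that coats autophagosomes, read 10.26, 9.52 and 9.66 in the lines at 6 days, against 8.71 in the empty vector, and 10.06, 9.58 and 8.94 at 3 days, against 8.75. AT3G59950, a protease of the ATG4 family that trims ATG8, read 8.01, 7.84 and 7.39 at 6 days, against 7.05. ATG8E (AT2G45170) did not follow in all lines, with 11.17, 10.43 and 10.49 at 6 days, against 11.08. None of the 15 passed the test.

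Most measured cell wall genes had lower values in the lines, and none passed the test. Of 33 loci 9 were measured, and 6 were lower in all lines at 6 days and 7 at 3 days, where 3538 and 4044 of the 13701 kept probe sets were. The median difference was -1.09 at 6 days, -1.16 at 3 days and -0.85 for lines 17 and 20 at 6 days, and -0.43 without inducer. Expansins loosen the wall during growth. EXPA15 (AT2G03090) read 5.75, 6.91 and 7.01 in the lines at 6 days, against 8.07 in the empty vector, and 5.16, 5.94 and 6.66 at 3 days, against 8.26. The non-induced lines at 6 days read 7.21, 6.91 and 7.28, against 7.56, so lines 17 and 20 with inducer were close to their own values without it. EXPA4 (AT2G39700) read 7.12, 8.63 and 8.73 at 6 days, against 9.66, and EXPB3 (AT4G28250) read 4.88, 7.09 and 7.81, against 8.56. In EXPA15, EXPA4 and EXPB3 the low-25S array of line 9 was the lowest at 6 days. EXPA8 (AT2G40610) read 2.51 in line 9, 5.75 in line 17 and 8.88 in line 20 at 6 days, against 8.16. Lines 17 and 20 thus also differed from each other, on arrays of the same kind.

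Xyloglucan endotransglucosylases, which cut and rejoin hemicellulose, had another order of lines. XTH16 (AT3G23730) read 8.32, 7.30 and 7.49 at 6 days, against 8.79, and differed by -1.40 ± 0.17 for lines 17 and 20 on the high-25S arrays (SE; limma adjusted p = 0.475). Its 3-day values were 8.82, 8.64 and 8.10, against 8.26, which gave no common direction. XTH33 (AT1G10550) was the measured wall gene with a positive mean difference at 6 days, at 7.99, 7.90 and 6.63, against 6.71. COB (AT5G60920), a protein that orients cellulose deposition, was lower in line 9 alone, at 10.30, 11.31 and 11.35, against 11.30. Among other wall genes, TBL36 (AT3G54260), of a family that acetylates wall polysaccharides, read 6.60, 7.38 and 7.82 at 6 days, against 9.15 in the empty vector, and 8.78, 8.29 and 8.77 without inducer, against 9.39. The difference of TBL36 was -1.88 ± 0.37 (SE; limma adjusted p = 0.183), and -2.0 against the pooled empty-vector arrays (limma adjusted p = 0.0122). GH9B13 (AT4G02290), of the endoglucanase family, read 5.25, 5.99 and 6.78, against 8.24.

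**Figure D3:**
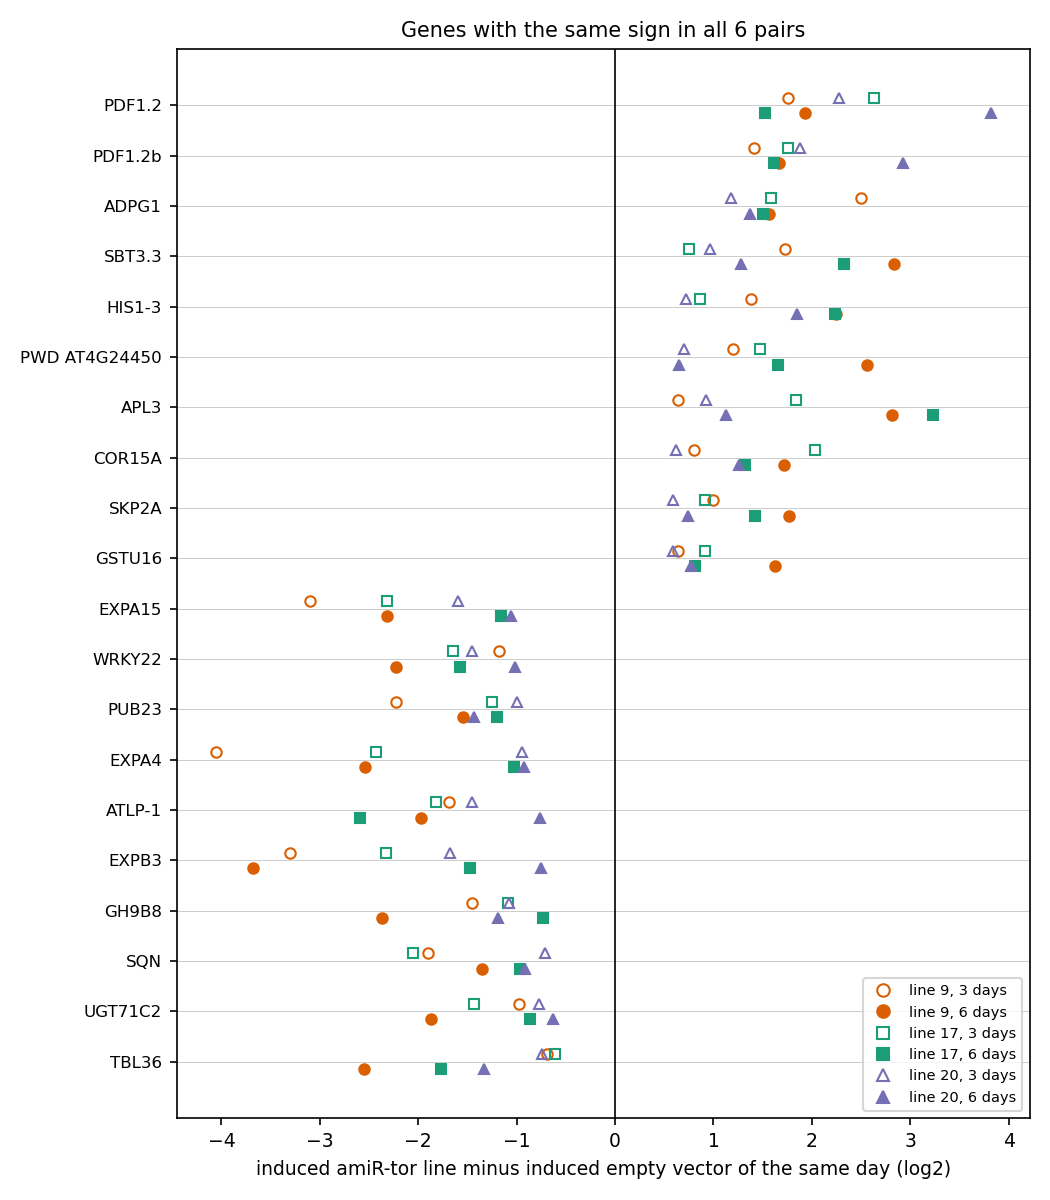
Differences (log2) of each induced amiR-tor line from the induced empty vector of the same day for the 20 genes with a symbol that rank highest by their smallest difference over 6 pairs. Open symbols are 3 days, filled symbols 6 days, colours the lines. The 10 higher genes lie right of 0 and the 10 lower ones left of 0 because the ranking asked for it; the leftmost points belong to line 9 in the expansins EXPA4 at 3 days and EXPB3 at 6 days.

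Cell division genes had lower values at 6 days, without passing the test. Only 3 of 27 loci were on named probe sets that passed the filter, and all 3 were lower in all lines at 6 days (3538 of the 13701 kept probe sets were), with a median of -1.22 at 6 days, -1.11 for lines 17 and 20, -0.30 at 3 days and -0.53 without inducer. PRL (AT4G02060), a subunit of the helicase that licenses DNA replication, read 4.09, 4.07 and 4.79 at 6 days, against 5.54 in the empty vector, and 5.32, 5.05 and 5.35 without inducer, against 5.30. Lines and vector were level without inducer and apart with it, by -1.22 (limma adjusted p = 0.301), and by -1.10 against the pooled empty-vector arrays (limma adjusted p = 0.0468). AUR1 (AT4G32830) and AUR2 (AT2G25880), the mitotic Aurora kinases, read 4.85, 4.20 and 4.78, against 5.45, and 4.28, 3.88 and 5.14, against 5.73. The non-induced lines were also below the non-induced empty vector for both, at 4.42, 4.74 and 4.96 against 5.24 for AUR1.

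Chlorophyll synthesis genes had lower values at 6 days, without passing the test, with line 20 close to the empty vector. Of 24 loci 8 were measured and 7 were lower in all lines at 6 days, where 3538 of the 13701 kept probe sets were, with median differences of -0.88, -1.0 and -0.22 in lines 9, 17 and 20. Over the list the median was -0.70 at 6 days, -0.23 at 3 days and 0.07 without inducer. PORB (AT4G27440), the light-dependent protochlorophyllide reductase, read 8.75, 9.09 and 10.34 at 6 days, against 10.58 in the empty vector, and 11.16, 10.84 and 10.68 without inducer, against 10.82. CHLI2 (AT5G45930), a subunit of magnesium chelatase, read 6.51, 6.41 and 7.86, against 8.44. HEME1 (AT3G14930), a uroporphyrinogen decarboxylase, read 7.68, 7.68 and 9.06, against 9.10. In these 3 genes line 17, which has a high-25S array, was as low as line 9 or nearly so.

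Genes of the photosynthetic apparatus in the nucleus stayed near the empty vector. The 5 measured members, among them LHCB4.1 (AT5G01530), an antenna protein of photosystem II, had a median difference of -0.17 at 6 days, -0.05 at 3 days and -0.04 for lines 17 and 20 at 6 days. Root markers, of which PYK10 (AT3G09260), a root beta-glucosidase, was the strongest, had a median of -0.15 at 6 days, with -0.87, 0.83 and 0.26 in lines 9, 17 and 20 and 0.55 for lines 17 and 20 together. PYK10 read 13.08, 13.57 and 13.43 at 6 days, against 13.51. Markers of green tissue and of roots were thus both present in these seedlings. None of the 8 floral and 7 seed storage loci was on a kept, named probe set. Ribosome biogenesis genes, with 6 of 19 loci measured, had medians of -0.11 at 6 days, -0.09 at 3 days and -0.16 for lines 17 and 20 at 6 days.

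**Figure D4:**
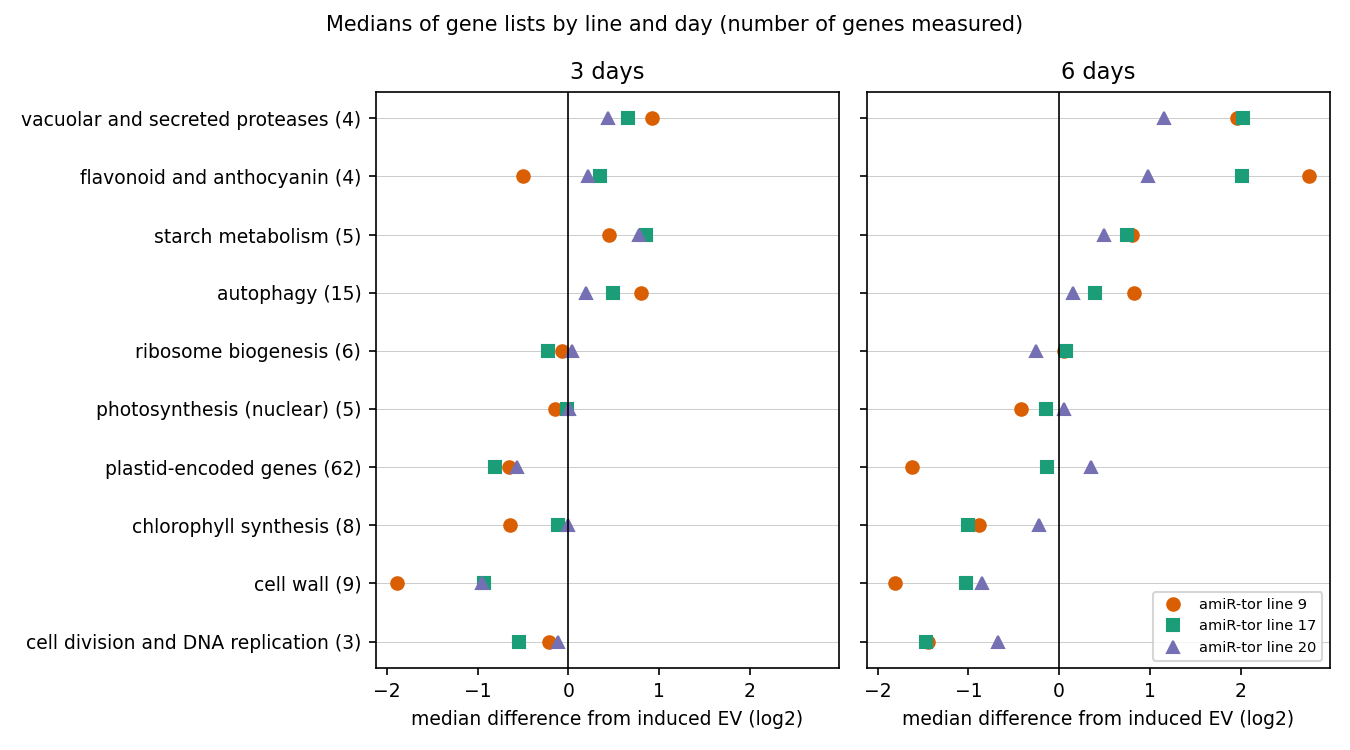
Median difference (log2) of 10 gene lists from the induced empty vector (EV), by line, at 3 days (left) and 6 days (right); numbers in brackets are measured genes. Protease medians are right of 0 in every line and day and cell wall medians left of 0. The flavonoid medians at 6 days are 2.75, 2.01 and 0.98, and the plastid-encoded medians separate line 9 (-1.62) from lines 17 (-0.13) and 20 (0.35).

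Genes encoded in the plastid did not share a single pattern over the arrays. Of 69 such genes 62 were kept, and their median difference was -0.65, -0.81 and -0.57 in lines 9, 17 and 20 at 3 days. At 6 days it was -1.62 in line 9, -0.13 in line 17 and 0.35 in line 20. The gene psbC, for a core antenna protein of photosystem II, read 4.82, 3.35 and 3.60 in the lines at 3 days, against 11.01 in the empty vector, and 3.36, 11.19 and 11.53 at 6 days, against 10.79. The low values of psbC were on the arrays with a low 25S signal, and the non-induced 3-day arrays of lines 17 and 20, also low in 25S, read 3.46 and 3.60. The gene psaA, for a reaction centre protein of photosystem I, read 2.36 in each line at 3 days, against 5.70 in the empty vector, and 2.88, 5.72 and 6.71 at 6 days, against 5.43. Other plastid genes were low in line 9 on an array with a high 25S signal, the non-induced one of 6 days. The following 3 were picked after their values were seen. There rpoC1, for a subunit of the plastid RNA polymerase, read 4.50 in line 9, 8.72 in line 17 and 9.14 in line 20, against 8.59 in the non-induced empty vector. The gene rbcL, for the large subunit of Rubisco, read 6.58, 9.27 and 9.32, against 9.03. The gene accD, for a subunit of the enzyme that starts fatty acid synthesis, read 2.57, 6.40 and 7.01, against 6.22, and with inducer at 6 days 2.57, 6.57 and 7.14, against 6.23. On the induced array of line 9 at 6 days, rpoC1 was also low (6.53, against 8.30 in the empty vector) and rbcL was not (9.08, against 8.61). At 3 days psbC, psaA, ATATH8 and EXPA8 ranked first among the lower genes with a symbol. With the kind of array in the model their 3-day differences became 0.54, -0.3, 0.06 and 0.10, in that order. That term comes from other groups, where line 9 differed in kind of array from lines 17 and 20.

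Genes highest at 3 days had another array pattern. HRGP1 (AT3G54590), a hydroxyproline-rich wall glycoprotein, read 8.70, 8.80 and 8.65 in the lines, against 6.96 in the empty vector, and the non-induced lines read 8.32, 8.72 and 8.74, against 7.30. SPP (AT5G42390), the stromal peptidase that trims imported chloroplast proteins, read 10.17, 10.26 and 10.07, against 8.61, and at 6 days it differed from the empty vector by 1.41 in line 9, 0.40 in line 17 and 0.13 in line 20. SLOMO (AT4G33210), an F-box protein that sets the rate of leaf initiation, read 8.92, 8.80 and 8.58 at 3 days, against 7.14, and 8.83, 7.72 and 7.37 at 6 days, against 7.27. SPP and SLOMO were high on the low-25S arrays and near the empty vector on the high-25S arrays of lines 17 and 20.

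Hormone and stress regulators gave single large values at 6 days. WES1 (AT4G27260), an enzyme that conjugates auxin to amino acids, read 9.04, 9.31 and 8.58 in the lines, against 6.71 in the empty vector, but 7.77 in the non-induced empty vector, so the induced empty vector was the lower of the 2 vector arrays. HIS1-3 (AT2G18050), a linker histone of the drought response, read 10.64, 10.62 and 10.24, against 8.39, and 9.60, 9.08 and 8.94 at 3 days, against 8.22. Its induced 6-day lines were above all 4 empty-vector arrays, which read 8.22 to 8.79. This order held for 12.3% of kept probe sets, and for 101 of the 118 that were higher past 1 in all lines at 6 days. HIS1-3 was ranked by its distance above the induced empty vector, so the order was largely set by that choice. The difference for lines 17 and 20 was 2.04 (limma adjusted p = 0.82). ARR15 (AT1G74890), a negative regulator of cytokinin signalling, read 3.48, 3.69 and 3.70 in the lines, against 5.11 in the empty vector, and without inducer 3.69, 3.70 and 3.70, against 4.91. The difference of ARR15 was -1.21 without inducer and -1.49 with it (limma adjusted p = 0.0529), and against the pooled empty-vector arrays it was -1.39 (limma adjusted p = 0.00168). These line values were all under log2 4, the cut for dim signals, and nearly equal. The size of the difference and its small spread are therefore limited by dim signal. COR15A (AT2G42540), which protects chloroplast membranes in the cold, read 7.36, 6.96 and 6.90 at 6 days, against 5.64.

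The named lower genes included a few regulators that belong to no list used here. WRKY22 (AT4G01250), a transcription factor of early pattern-triggered immunity, read 4.95, 5.60 and 6.16 in the lines at 6 days, against 7.18 in the empty vector, and 6.55, 6.08 and 6.28 at 3 days, against 7.73. All 6 induced arrays were below all 4 empty-vector arrays, the lowest of which read 7.18. This order held for 4.76% of kept probe sets, and for all 15 that were lower past 1 in all 6 pairs. WRKY22 was 1 of those 15, so the order was largely set by how it was chosen. PUB23 (AT2G35930), a ubiquitin ligase that dampens immune and drought responses, read 6.98, 7.33 and 7.10 at 6 days, against 8.53. Line 20 without inducer was also at 6.97 for PUB23, and line 9 at 9.47. SQN (AT2G15790), a cyclophilin that works with the HSP90 chaperone, read 4.03, 4.41 and 4.46 at 6 days, against 5.38. These were below all 4 empty-vector arrays, of which the lowest read 4.55 (10.4% of kept probe sets had this order). SQN was ranked by its distance below the induced empty vector, so that order was partly set by the choice.

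Lines 17 and 20 at 6 days, where array kind matched, had a few further genes among their top ranks. UGT84A3 (AT4G15490), a glucosyltransferase of hydroxycinnamates, read 8.62 and 8.47, against 6.68, a difference of 1.86 ± 0.33 (SE; limma adjusted p = 0.742). TBL34 (AT2G38320) read 2.54 and 2.75, against 4.19, a difference of -1.54 ± 0.32 (SE; limma adjusted p = 0.781), and the non-induced empty vector read 2.80, level with the lines. M17 (AT2G41260) read 4.31 and 4.91, against 7.15, and sks15 (AT4G37160), of a family related to copper oxidases, read 4.34 and 4.38, against 6.43. For sks15 the empty vector read 5.11 at 6 days without inducer, and 4.88 and 4.10 at 3 days with and without it. The induced empty vector of 6 days was thus its highest vector array. Without inducer at 6 days lines 9, 17 and 20 read 3.70, 3.44 and 4.64. UF3GT differed by 2.44 and SBT3.5 by 2.19 in these 2 lines, close to their values over 3 lines (2.90 and 2.34), which rest on the same induced empty-vector array.

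**Figure D5:**
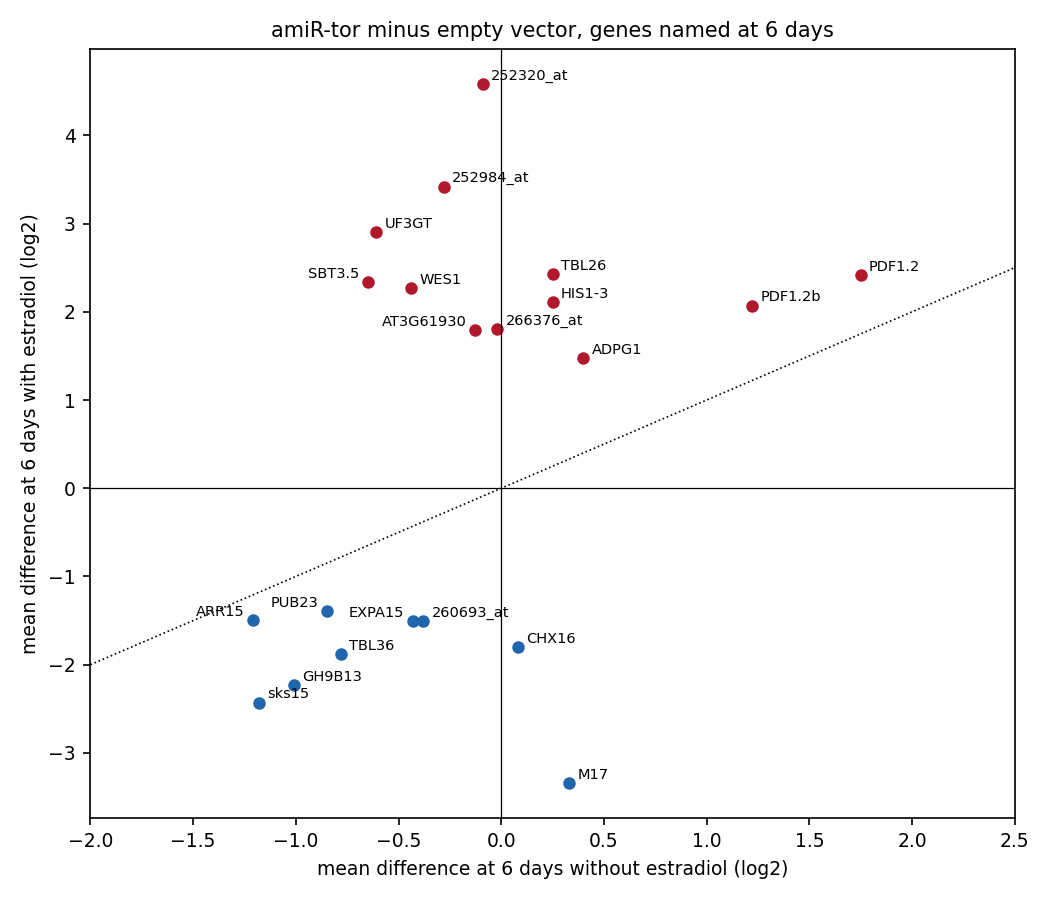
Mean difference (log2) of the 3 amiR-tor lines from the empty vector at 6 days with estradiol (vertical axis) and without it (horizontal axis), for the genes named at 6 days; the dotted line marks equal differences. UF3GT, SBT3.5, 252320_at and 252984_at lie near or left of 0 on the horizontal axis, whereas PDF1.2, PDF1.2b and ARR15 lie toward the dotted line.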

How the data were processed

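RNA from seedlings was hybridised to single-colour arrays, 1 per sample. The deposited values are log2 signals made by the authors with GCRMA, per the submitters' processing notes; its version is not given in the sources used here. They ran from 2.12 to 15.32 over 22810 probe sets. Left out were 64 control and 9045 dim probe sets (under log2 4 in all but 2 or fewer arrays). Of 22746 gene probe sets, the naming table gave 13513 a single gene and 503 several, and did not hold 8730; RefSeq (TAIR10.1) gave symbols to 1066 kept ones. No coordinates are given. Differences are induced amiR-tor minus induced empty vector, fitted with limma 3.58.1 in R 4.3.3 (1 mean per group, 8 residual degrees of freedom), Benjamini-Hochberg under 0.05, checked on simulated data. The labels do not mention separate cultures; p-values reflect the variation among the lines and may be partly technical. The number of arrays limits the precision.

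The members, lists and naming rule were chosen with earlier results of these data known. Genes were named by the smallest same-sign pair difference among genes with a symbol, with up to 10 each way over both days, 8 at 6 days, 8 for lines 17 and 20, and 4 at 3 days; in lists, up to 2 with the smallest p. Other list members were named after their values were seen, and the plastid set was added then too. No 2 arrays were copies (highest correlation 0.992, 4.48% identical values). Alternatives were other filters, quantile normalization, lines left out, the line as a random block, the 25S class as a covariate and pooled empty-vector arrays.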

Additional observations from a re-analysis of the deposited data

Results flagged for a closer look

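The differences of 2 genes between induced amiR-tor lines and induced empty vector had opposite signs at 6 and 3 days in every line. UGT84A3 (AT4G15490), a glucosyltransferase of hydroxycinnamates, read 7.56, 8.62 and 8.47 (log2) in lines 9, 17 and 20 at 6 days, against 6.68 in the empty vector, and 6.05, 7.28 and 7.45 at 3 days, against 7.55. The 6-day difference minus the 3-day difference was 2.16 (limma unadjusted p = 0.0164). TBL34 (AT2G38320), of the wall acetylation family, read 3.27, 2.54 and 2.75 in the lines at 6 days, against 4.19 in the empty vector, and 4.15, 3.51 and 3.83 at 3 days, against 3.40, which gives -1.77 (limma unadjusted p = 0.00387). Neither passed after adjustment: limma called 0 probe sets for the change between days, with 430 at an unadjusted p under 0.05 and a smallest adjusted p of 0.418. At 3 days all lines, and at 6 days line 9 alone, were on arrays with a low 25S signal, and its part in these values was not tested.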

How the results depend on the processing

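Calls at 6, 3 and both days were 5, 1 and 4. With no filter on dim probe sets they were 111, 159 and 227, with 165 for lines 17 and 20 at 6 days (0 with the filter) and 143 for the induced minus the non-induced difference (1 with it); the added probe sets include ones at the floor with almost no spread. Leaving out a line gave 0 to 4 calls at 6 days, 0 to 362 at 3 days (362 without line 9, 0 without line 17 and without line 20), 0 to 70 over both days (70 without line 9, 0 without line 17), and 0 to 2 for the induced minus the non-induced difference. Without line 9 no group held arrays of both kinds, while array kind and genotype still coincided at 3 days. With the line as a random block, 6 days gave 8 calls, including the 5, and the other counts were within 1.5 times. A fixed block was not possible because the empty vector shares no line with amiR-tor. The 8 induced arrays alone gave 0 for 6, 3 and both days, and days averaged per line 0 for both days. Adding the 25S class to the model gave 3, 0 and 0, and 0 for the induced minus the non-induced difference. Pooling the empty-vector arrays of a day gave 79, 861 and 2142. It mixes vector arrays with and without inducer, and at 3 days array kind coincided with genotype, as it did without pooling. Leaving out the 6-day array of line 9, chosen after seeing the data, gave 1 at 6 days and 2 over both days. The causes were not tested.

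Past a log2 difference of 0.58 in all 3 lines at 6 days there were 377 higher and 355 lower, and past 2 there were 15 and 5. In all 6 pairs these were 82 and 90, and 1 and 0. With that class in the model, psbC turned to 0.45 at 6 days, 0.54 at 3 days and 0.49 over both days. The difference of psaA turned to 0.69 at 6 days and 0.19 over both days, and at 3 days it went from -3.34 to -0.3. At 3 days EXPA8 turned to 0.10 and ATATH8 to 0.06. Without 1 line psbC ranged between -3.52 and 0.57 and psaA between -1.13 and 0.78 at 6 days; 0.57 and 0.78 were the values without line 9, and without its 6-day array alone. Quantile normalization and the stricter filter kept every count within 1.5 times. Dim signals near the floor compress differences.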
